A study of Mus musculus with 6 samples.

Results

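The genes described here are the 10 that encode the MHC class I molecule and its peptide-loading machinery: H2-K1, H2-D1, H2-T23, B2m, Tap1, Tap2, Tapbp, Tapbpl, Erap1 and Nlrc5. They were taken by gene symbol, with earlier results of these data known, and each symbol matched 1 of the 52550 genes listed. Their shares are therefore not independent of these data. All 10 were among the 15265 genes that passed the filter on low values. The libraries hold RNA of splenic plasmacytoid dendritic cells (C57BL/6 mice), the cell type that answers viral nucleic acid with large amounts of type I interferon. In 3 libraries the cells were given both R837, the TLR7 agonist imiquimod, and taurine, an amino sulfonic acid. In the other 3 they were given R837 alone, and both treatments lasted 12 hours. Both groups were thus TLR7-stimulated, and libraries without R837 were not analysed here. No age, dose or animal is tied to a library by the labels, so p-values measure only the spread between these libraries, which may be technical.

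A class I molecule is a heavy chain paired with beta-2-microglobulin around a short peptide, and it shows the contents of a cell to CD8 T cells and natural killer cells. Proteasomes cut proteins into peptides, the TAP transporter carries these into the endoplasmic reticulum, the aminopeptidase ERAP1 trims them, and tapasin and its relative TAPBPR help the heavy chain keep those that bind well. The transactivator NLRC5 drives several of these genes through a shared promoter module, and interferon raises class I genes in most cell types, dendritic cells included.

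Promoters of the class I genes carry an element bound by interferon regulatory factors, an NF-kB element and the module used by NLRC5, whose X2 box and Y box are bound by CREB-type factors and by NF-Y. The 130 bases printed for H2-K1 and B2m, one heavy chain and the light chain, show the order of these letters before the annotated start (RefSeq, GRCm38.p6, whose promoter table matched 7 of the 10 genes by symbol). Capitals mark matches on either strand to AANNGAAA (the interferon regulatory factor element), to the NF-kB consensus, to TGACG (the core of X2) and to ATTGG (the Y box, CCAAT on the other strand). Overlapping matches run together. The positions are chr17:34000348-34000477 (minus strand) and chr2:122147550-122147679 (plus strand). The H2-K1 bases are those before the RefSeq start at 34000347. RefSeq also lists a start of H2-K1 at 34000333, with a further CCAAT at -6 to -2 from it.
H2-K1: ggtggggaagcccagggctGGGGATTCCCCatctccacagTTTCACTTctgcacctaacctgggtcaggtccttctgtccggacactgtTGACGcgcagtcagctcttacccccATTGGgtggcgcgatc
B2m: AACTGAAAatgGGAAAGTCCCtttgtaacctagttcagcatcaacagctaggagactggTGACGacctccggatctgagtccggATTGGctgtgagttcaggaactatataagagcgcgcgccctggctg
H2-K1, H2-D1 and B2m had TGACG followed on the same strand by ATTGG with exactly 20 bases between them, printed for the 3 genes from chr17:34000359-34000388 (minus strand), chr17:35262993-35263022 (plus) and chr2:122147609-122147638 (plus).
H2-K1 pair: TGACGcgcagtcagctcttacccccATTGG
H2-D1 pair: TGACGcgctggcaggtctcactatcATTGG
B2m pair: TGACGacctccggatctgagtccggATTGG
Within the 250 bases before all 32851 annotated starts in the table, 0.0913% had this pair at this distance, and 0.724% had it at 10 to 35 bases. The same 3 genes also held the NF-kB consensus (3.90% of all starts) and AANNGAAA (21.3%). From the NF-kB consensus onward, 89 of 100 aligned bases were identical between H2-K1 and H2-D1. H2-T23 held AANNGAAA and CCAAT but neither TGACG nor the NF-kB consensus in its 250 bases. Tap1 held TGACG (17.8% of all starts) and CCAAT (33.8%), but not at that distance. Its start lay 226 bases from that of Psmb9, an immunoproteasome subunit gene read in the opposite direction. Of the other 2 genes with an entry, Tapbp held Y box matches only and Erap1 held none of the 4 motifs. These are matches of letters, not binding sites. GENCODE places the starts of some transcripts of H2-D1, H2-T23 and Psmb9 farther upstream than RefSeq does. The deposited coordinates likewise start Tapbp at 33915899 and Erap1 at 74639568, upstream of their RefSeq starts at 33919478 and 74639853. Bases before these upstream starts of Tapbp and Erap1 were not searched, so the matches given for both apply to their RefSeq starts only.

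With taurine 4 of the 10 genes rose and 0 fell: H2-K1, B2m, Tap1 and Tap2 (limma on log2(normalized count + 1), adjusted p under 0.05). Over all tested genes 6.41% were called, 3.75% higher and 2.66% lower. With edgeR 5 of the 10 were called higher (3.74% of all tested genes) and 0 lower (2.48%), and with DESeq2 6 higher (6.51%) and 0 lower (6.02%). Limma called 0 of the 10 without R837 replicate 2 (0.878% of all tested genes) or without taurine replicate 2 (1.64%), and 5 of the 10 without R837 replicate 3 (9.68%). At an unadjusted p under 0.05 limma counted 7 of the 10 higher and 1 lower, against 11.6% and 12.2% of all tested genes. For 8 of the 10 genes all 3 taurine libraries lay above all 3 R837 libraries, as did 14.6% of tested genes. For 1, H2-T23, all 3 lay below, as did 15.0%, so that 9 of the 10 did not overlap in either direction (29.6% of tested genes). The median log2 change of the 10 was 0.19, against -0.01 over all tested genes. When library totals were taken without the 50 most abundant genes, which include H2-K1, H2-D1, B2m and Tapbp themselves, the whole-table counts were 462 higher and 586 lower, against 573 and 406 as deposited. B2m then missed the threshold, and H2-K1, Tap1 and Tap2 kept their calls.

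**Figure D1:**
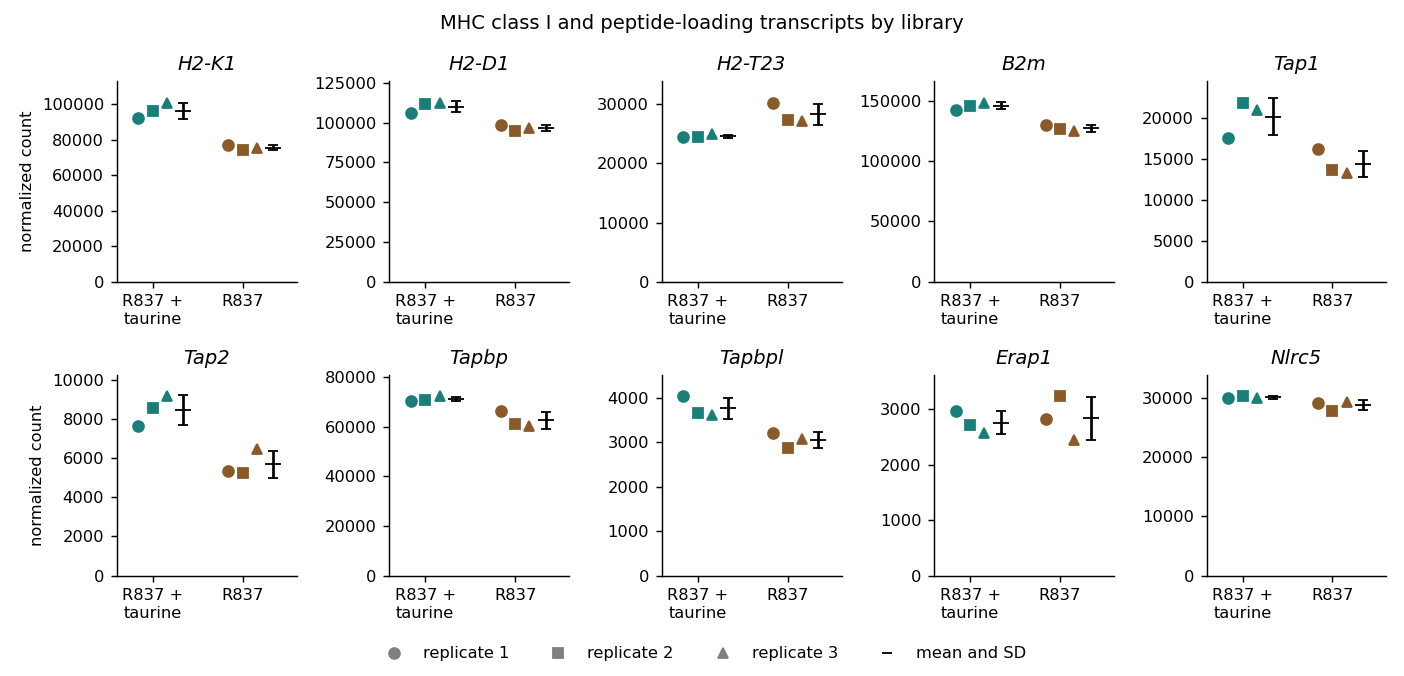
Normalized count of each of the 10 genes (vertical axis, starting at 0) in each library, with the R837 plus taurine libraries left of the R837 libraries; bars give mean and SD of 3 libraries. H2-K1 lay between 92017 and 100999.8 with taurine and between 74234 and 77090.1 with R837 alone, while Erap1 overlapped between the groups and H2-T23 lay lower with taurine.

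The libraries held between 33585080 and 38392654 reads on genes, and the deposited normalized counts are those reads divided by 1 factor per library. Transcripts of plasmacytoid dendritic cells dominated the markers, with 9 listed, Siglech, Bst2 and Tcf4 among them. These 9 summed to 149006 to 158330.4 with taurine and 152949.7 to 166811 with R837 alone. Of the 9, 2 were called higher and 4 lower by limma, with a median log2 change of -0.35. Over all tested genes limma called 3.75% higher and 2.66% lower, shares that also stand beside the marker counts below. The 7 conventional dendritic cell markers summed to 23260.0 to 24359 against 27695 to 30123 (2 called lower), and the 7 neutrophil markers to 1533 to 1901 against 1033 to 1482 (1 called higher). The 6 erythroid markers summed to 126 to 165 against 58.5 to 88.5 (1 called higher), and the ranges of these 3 lists did not overlap between the groups. Sums of the B cell (1708 to 2461 against 1561 to 2676), T cell (968 to 1244 against 1219 to 1357), natural killer cell (25.5 to 38.1 against 31.2 to 64.2) and macrophage and monocyte lists (10789.6 to 14755 against 12728 to 13235) overlapped, with 0 calls in each. Cd3d, Cd3g, Klra8, Gzma and Prf1 were at 0 in all 6 libraries. Each sum follows its most abundant genes and so does not count cells. The most abundant were Spib, Bst2 and Tcf4 for plasmacytoid dendritic cells, and Flt3 and Itgax for conventional dendritic cells. For T cells it was Cd4, and for macrophages and monocytes Ly6c2. The part of the shifts in marker sums in the class I results was not tested, and in bulk RNA fewer cells of a type and less RNA per cell cannot be told apart. Deviations of a library from the gene means also ran with exon length, with Spearman's rho of -0.203 to -0.100 across genes in the taurine libraries and 0.0443 to 0.147 in the R837 libraries.

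Among the heavy chains, H2-K1 rose, while H2-T23 lay lower in every taurine library without passing the threshold. H2-K1 encodes the classical chain H-2K, which presents peptides to CD8 T cells (ENSMUSG00000061232.15, mm10 chromosome 17, 33996017 to 34000333, minus strand). Its normalized count was 92017, 96035 and 100999.8 in the taurine libraries and 77090.1, 74234 and 75436 in the R837 libraries. The groups were far apart relative to their spread, at 96351 ± 4499.6 with taurine and 75587 ± 1434 with R837 (SD, n = 3 each). The log2 change was 0.35 ± 0.05 (SE), or 27.4%, with an adjusted p of 0.0120 by limma. The call was lost without R837 replicate 2 (adjusted p = 0.0653, limma) or without taurine replicate 2 (0.0537). Under quantile normalization the log2 change of H2-K1 was 0.22 (adjusted p = 0.0288, limma). H2-K1 missed the threshold in limma without the abundance trend (adjusted p = 0.127).

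H2-D1, the other classical chain (ENSMUSG00000073411.11, chromosome 17, 35262730 to 35267499, plus strand), had 105947, 111907 and 112669 in the taurine libraries, against 98304, 94942 and 96933 in the R837 libraries. Each taurine library was above each R837 library, with averages of 110174 ± 3681 with taurine and 96726 ± 1691 with R837 (SD, n = 3 each). Its log2 change was 0.19 ± 0.05 (SE) with an adjusted p of 0.0596 by limma, which missed the threshold, while edgeR gave 0.0449 and DESeq2 0.0497. Under quantile normalization the log2 change of H2-D1 was 0.02. It was 0.10 once trends on exon length and GC content were taken out of each library (adjusted p = 0.181, limma).

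H2-T23 encodes the heavy chain of Qa-1, a non-classical molecule that presents leader peptides of other class I chains to the receptor CD94-NKG2A of natural killer cells (ENSMUSG00000067212.8, chromosome 17, 36029773 to 36032855, minus strand). It had 24419, 24479 and 24864 in the taurine libraries, against 30243, 27301 and 27140.1 in the R837 libraries. The taurine libraries lay close together and all below the R837 libraries, with averages of 24588 ± 241 with taurine and 28228 ± 1747 with R837 (SD, n = 3 each). Its log2 change was -0.20 ± 0.06 (SE) with an adjusted p of 0.0924 by limma, so H2-T23 was not called. It was called lower under quantile normalization (-0.29, adjusted p = 0.0220, limma) and once trends on exon length and GC content were taken out of each library (-0.26, adjusted p = 0.0366, limma).

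The ratio of H2-T23 to H2-K1 within a library does not depend on how libraries were scaled. Per kilobase of exon, H2-T23 stood at 0.270, 0.259 and 0.250 of H2-K1 in the taurine libraries, against 0.399, 0.374 and 0.366 in the R837 libraries. The groups did not overlap, and the log2 ratio differed by -0.55, with p = 0.1 in a two-sided exact permutation test, the smallest p that 3 libraries against 3 allow. H2-K1 over H2-D1 was higher in every taurine library than in every R837 library, with per-kilobase ratios of 0.768 ± 0.0174 with taurine and 0.686 ± 0.00264 with R837 (SD, n = 3 each, exact permutation p = 0.1). These ratios were among 6 chosen after the values were seen, and no p adjusted over the 6 was under 0.2.

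**Figure D2:**
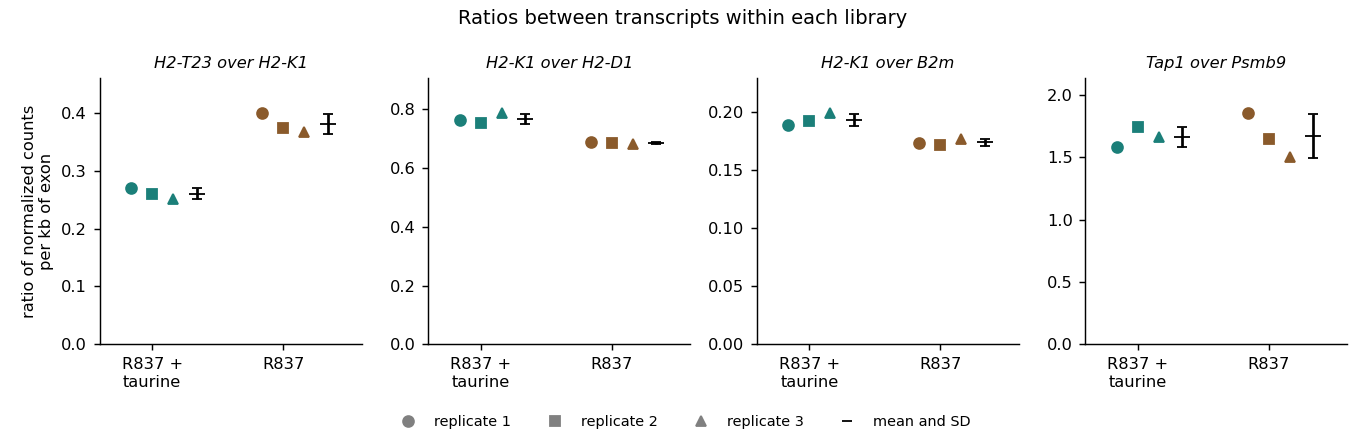
Ratio of normalized counts per kilobase of exon for 4 pairs of genes within each library (vertical axes start at 0), with R837 plus taurine left of R837; bars give mean and SD of 3 libraries. H2-T23 over H2-K1 averaged 0.260 with taurine and 0.380 with R837, and Tap1 over Psmb9 overlapped between the groups.

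Heavy chains of different loci share stretches of sequence, so the split of reads between them is uncertain. Of the distinct windows of 100 bases in their annotated transcripts, 0.957% of H2-K1, 3.59% of H2-D1 and 3.15% of H2-T23 occurred in the transcript of another gene, such as H2-Q7 for H2-K1 and H2-Q1 for H2-D1. How the authors treated reads with more than 1 match is not given in the sources used here. The sum over all 24 listed heavy chain genes in the files, which does not depend on the split among them, was 285908, 301439 and 308678 with taurine, against 260521, 251379.9 and 255662 with R837. Every taurine sum exceeded every R837 sum, with a log2 ratio of the means of 0.22. The sum leaves out Gm7030 and Gm11127, which also share windows with H2-D1 and H2-T23, so a split of reads with those genes stays uncertain. H2-K1 took 32.3% ± 0.435 of that sum with taurine and 29.5% ± 0.0435 with R837. H2-T23 took 8.24% ± 0.264 with taurine and 11.03% ± 0.517 with R837 (SD, n = 3 each).

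Of 13 other heavy chain genes tested, 11 had a positive log2 change. Of these 13, 3 were called higher and 0 lower (0 also at an unadjusted p under 0.05, and 0 by edgeR and DESeq2), with a median log2 change of 0.23. Over all tested genes limma called 3.75% higher and 2.66% lower, and the median log2 change was -0.01. H2-T22 and H2-T10, close relatives whose products are known as ligands of gamma delta T cell receptors (GENCODE lists H2-T10 as a polymorphic pseudogene), had log2 changes of 0.59 and 0.54 (adjusted p = 0.00809 and 0.0281, limma). H2-T22 averaged 9416 ± 836 with taurine and 6261 ± 191 with R837, and its call held in all 6 fits with 1 library left out. Exons of both overlap another gene and the copies resemble each other, so their single values are uncertain. H2-Q7, which encodes the non-classical molecule Qa-2, averaged 24017 ± 1074 with taurine and 19198 ± 342 with R837 (log2 change 0.32, adjusted p = 0.0189, limma) and kept its call without R837 replicate 3 or taurine replicate 1. With any of the other 4 libraries left out its adjusted p by limma was 0.0642 to 0.0875, and H2-T10 kept its call only without R837 replicate 3 (0.0669 to 0.111 in the other 5 fits). H2-Q6 had a log2 change of 0.40 (adjusted p = 0.0510, limma). H2-T24, named after its value was seen, had a log2 change of -0.07 (adjusted p = 0.658, limma). Of the 5 class I-like genes (Cd1d1, Cd1d2, Mr1, Fcgrt and Hfe) 0 were called in either direction by limma, edgeR or DESeq2, and 0 had an unadjusted p under 0.05. Their 4 smallest p-values belonged to Cd1d1 (0.27), Mr1 (-0.67), Fcgrt (-0.21) and Hfe (-0.08), given as log2 changes.

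B2m, the light chain that pairs with class I heavy chains, also rose (ENSMUSG00000060802.8, chromosome 2, 122147686 to 122153083, plus strand). It had 142699, 146015 and 148516 in the taurine libraries, against 130037, 126850.4 and 124708 in the R837 libraries. The taurine libraries all lay above the R837 libraries, and the averages were 145743 ± 2918 with taurine and 127199 ± 2682 with R837 (SD, n = 3 each). The log2 change was 0.20 ± 0.05 (SE), or 14.6%, with an adjusted p of 0.0436 by limma. This call depended on the setting. It was kept in 1 of the 6 fits with 1 library left out, that without R837 replicate 3. In the other 5 the adjusted p by limma was 0.0829 to 0.153. The call was kept in 8 of 16 other settings, and the log2 change was 0.05 under quantile normalization. Those 8 include scaling by DESeq2 size factors, which repeats the deposited scaling. They also include the reads of overlapping genes added, which leaves B2m as it was because its exons overlap no other gene. Once trends on exon length and GC content were taken out of each library, the log2 change of B2m was 0.17 (adjusted p = 0.215, limma). H2-K1 over B2m, per kilobase, was 0.193 ± 0.00522 with taurine and 0.174 ± 0.00291 with R837 (SD, n = 3 each, exact permutation p = 0.1).

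Both subunits of the peptide transporter rose. Tap1 (ENSMUSG00000037321.17, chromosome 17, 34187553 to 34197225, plus strand) had 17618, 21937 and 21059.8 in the taurine libraries, against 16252, 13742 and 13323 in the R837 libraries. Taurine replicate 1 lay nearest to R837 replicate 1, and the groups did not overlap, at 20205 ± 2283 with taurine and 14439 ± 1584 with R837 (SD, n = 3 each). The log2 change was 0.48 ± 0.10 (SE), or 39.8%, with an adjusted p of 0.0321 by limma.

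Tap2 (ENSMUSG00000024339.12, chromosome 17, 34203527 to 34216321, plus strand) had 7649.7, 8567 and 9147 in the taurine libraries, against 5334, 5229.8 and 6447 in the R837 libraries. R837 replicate 3 stood above the other R837 libraries and below all taurine libraries, and the averages were 8454 ± 755 with taurine and 5670.0 ± 675 with R837 (SD, n = 3 each). The log2 change was 0.58 ± 0.10 (SE), or 49.4%, with an adjusted p of 0.0175 by limma. Tap1 kept its call without R837 replicate 1, R837 replicate 3 or taurine replicate 1, and Tap2 without R837 replicate 3 or taurine replicate 1. With the other libraries left out, adjusted p by limma reached 0.124 for Tap1 and 0.0802 for Tap2. Tap1 was called in 12 and Tap2 in 15 of 16 other settings. Both counts include scaling by DESeq2 size factors, which repeats the deposited scaling and so could not differ. Tap1 missed the threshold with no filter on low values (adjusted p = 0.0670, limma), and both missed it in limma without the abundance trend (0.152 for Tap1 and 0.115 for Tap2). Tap2 over Tap1 per kilobase was 0.608 ± 0.0366 with taurine and 0.576 ± 0.115 with R837, within the spread (exact permutation p = 0.6).

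Exons of Tap1 overlap those of Psmb9 by 212 bases, and those of Tap2 overlap the noncoding genes Gm15821 and Gm20496, so with no stated strand setting part of their reads is uncertain. With the reads of all overlapping genes added, the log2 changes were 0.48 for Tap1 and 0.58 for Tap2. Psmb9 alone had a log2 change of 0.49. With taurine Gm15821 and Gm20496 averaged 578 and 324, against 8454 for Tap2. The sums could thus hardly differ from the single values, and they do not settle how reads were split. Psmb9 itself averaged 8128 ± 574 with taurine and 5793 ± 186 with R837. The ratio of Tap1 to Psmb9 per kilobase was 1.66 ± 0.0814 with taurine and 1.67 ± 0.176 with R837 (SD, n = 3 each), a log2 difference of -0.00256 (exact permutation p = 1).

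The 2 editors of peptide loading lay higher in every taurine library without passing the threshold. Tapbp encodes tapasin, which bridges TAP and the empty heavy chain (ENSMUSG00000024308.14, chromosome 17, 33915899 to 33929288, plus strand). It had 70368.6, 70862.7 and 72200.8 in the taurine libraries, against 66443, 61063 and 60253 in the R837 libraries. R837 replicate 1 lay nearest to the taurine group, and the averages were 71144 ± 948 with taurine and 62586 ± 3364 with R837 (SD, n = 3 each). Tapbp had a log2 change of 0.19 ± 0.06 (SE, adjusted p = 0.0817, limma).

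Tapbpl encodes TAPBPR, the tapasin relative that edits peptides outside the loading complex (ENSMUSG00000038213.7, chromosome 6, 125223933 to 125231860, minus strand). It had 4034, 3649.5 and 3605 in the taurine libraries, against 3216, 2864 and 3074 in the R837 libraries. The groups did not overlap, at 3763 ± 236 with taurine and 3052 ± 177 with R837 (SD, n = 3 each). Its log2 change of 0.30 ± 0.08 (SE) had an adjusted p of 0.0682 by limma and 0.0181 by DESeq2. Exons of Tapbp overlap Gm19412 and Zbtb22, and its log2 change was 0.18 with their reads added.

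Erap1, the aminopeptidase that trims peptides to class I length (ENSMUSG00000021583.7, chromosome 13, 74639568 to 74693201, plus strand), had 2981, 2720.5 and 2571 in the taurine libraries, against 2824, 3237 and 2457 in the R837 libraries. The groups overlapped, at 2758 ± 208 with taurine and 2839 ± 390.3 with R837 (SD, n = 3 each). The log2 change was -0.04 ± 0.11 (SE, adjusted p = 0.890, limma). Exons of Erap1 overlap 834 bases of Cast, which averaged 2816 ± 128 with taurine and 2294 ± 57.8 with R837, and the log2 change was 0.12 with the reads of Cast added (adjusted p = 0.428, limma).

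Nlrc5, the class I transactivator (ENSMUSG00000074151.13, chromosome 8, 94434356 to 94527272, plus strand), had 29878, 30231 and 30002 in the taurine libraries, against 29103, 27839 and 29311 in the R837 libraries. The libraries of both groups lay within a narrow range and the taurine libraries were all above, at 30037 ± 179 with taurine and 28751 ± 797 with R837 (SD, n = 3 each). Nlrc5 had a log2 change of 0.06 ± 0.05 (SE, adjusted p = 0.512, limma). A p that misses the threshold does not show that Nlrc5 was equal in both groups.

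Per kilobase of exon, B2m was the most abundant of the 10 transcripts in both groups, at 169469 ± 3393 normalized counts with taurine and 147905 ± 3118 with R837 (SD, n = 3 each). H2-D1, H2-K1, Tapbp and H2-T23 followed in that order, from 42719.7 ± 1427 for H2-D1 to 8511 ± 83.6 for H2-T23 with taurine, and from 37505 ± 656 to 9771 ± 605 with R837. Nlrc5 and Tap1 came next. With taurine their levels of 3537 ± 21.1 and 3689.7 ± 417 lay within the spread, and with R837 Nlrc5 at 3385 ± 93.8 exceeded Tap1 at 2637 ± 289. Tap2 was at 2236 ± 199.6 per kilobase with taurine and 1499.6 ± 178 with R837, and Tapbpl at 1599.9 ± 100.4 with taurine and 1297 ± 75.4 with R837. Tap2 and Tapbpl thus lay within the spread of each other with R837 alone. Erap1 was the least abundant, at 379 ± 28.5 with taurine and 390.02 ± 53.6 with R837. These levels divide by the union of annotated exons (5476 bases for Tap1 and 8493 for Nlrc5), which can be longer than the transcript made. The order of genes close in level, such as Nlrc5 and Tap1, therefore depends on the length used. Among all listed genes B2m ranked 10 by mean normalized count, without regard to length.

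**Figure D3:**
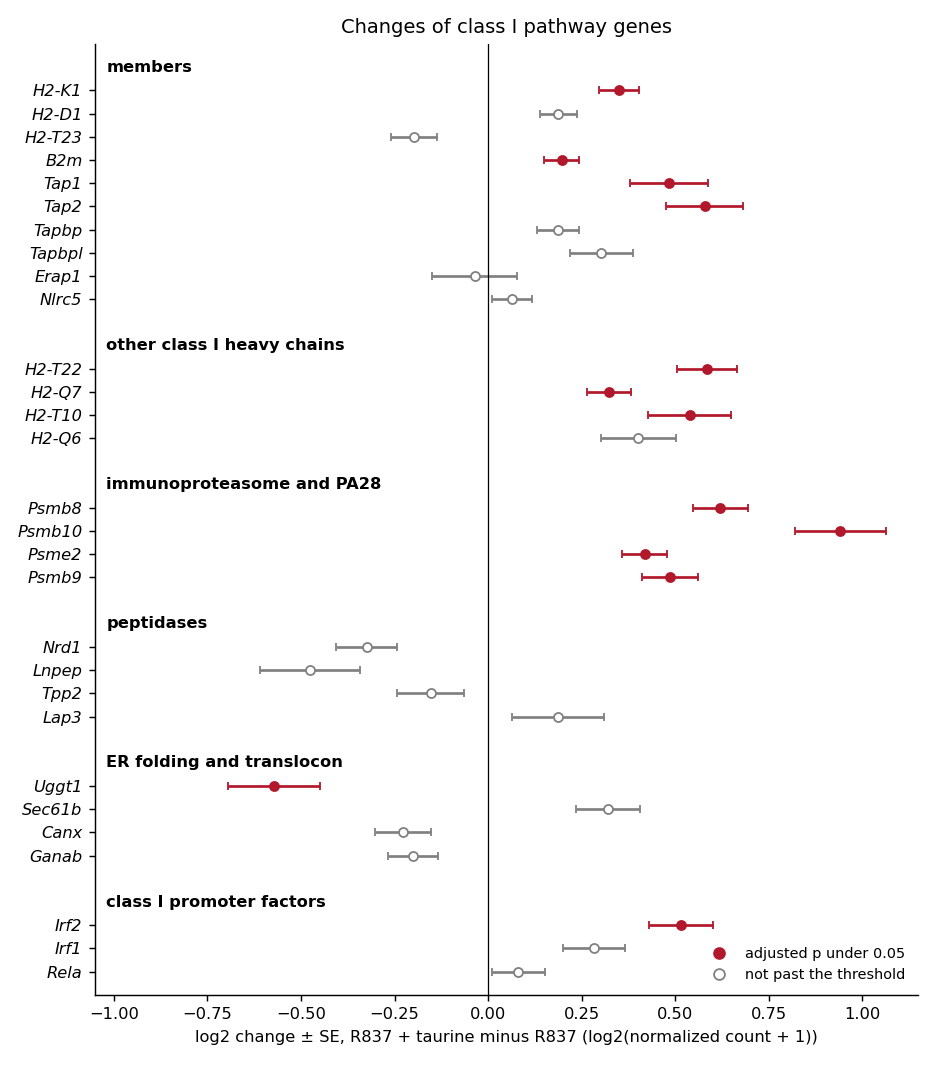
Log2 change (R837 plus taurine minus R837, horizontal axis, bars are SE) of the 10 genes and of up to 4 genes with the smallest p from each of 5 further lists; filled red points passed an adjusted p under 0.05 in limma. H2-K1, B2m, Tap1 and Tap2 are filled among the 10, and all 4 genes shown of the immunoproteasome list are filled, with Psmb10 at 0.94.

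Genes that supply or fold the components of class I were read from the same fit, which called 3.75% of all tested genes higher and 2.66% lower. The immunoproteasome, which cuts peptides with ends that suit class I, and its activator PA28 had 4 of 6 tested genes called higher and 0 lower (0 at an unadjusted p under 0.05, and 0 by edgeR and DESeq2), with a median log2 change of 0.45. Psmb8 (log2 change 0.62), Psmb9 (0.49) and Psmb10 (0.94) encode its catalytic subunits and Psme2 (0.42) a subunit of PA28, with adjusted p-values of 0.00509, 0.0121, 0.00675 and 0.0102 by limma. Psmb10 averaged 4184 ± 541 with taurine and 2178 ± 278 with R837 (SD, n = 3 each). The calls held in 6 of 6 fits with 1 library left out for Psmb8 and Psmb10, in 5 for Psme2 and in 3 for Psmb9. Psme2 was lost without R837 replicate 2 (adjusted p = 0.0536, limma), and Psmb9 without R837 replicate 2, taurine replicate 2 or taurine replicate 3 (0.0639, 0.0536 and 0.0527). Exons of Psmb8 overlap the antisense gene Gm20496.

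Cytosolic and endosomal peptidases, which shorten or destroy peptides before or beside TAP, had 0 of 8 tested genes called in either direction by limma or edgeR. At an unadjusted p under 0.05, 0 were higher and 2 lower (11.6% and 12.2% of all tested genes), and DESeq2 called 2 lower (6.02%). The 4 with the smallest p were Nrd1 (log2 change -0.32, adjusted p = 0.0504), Lnpep (-0.48, 0.0701), Tpp2 (-0.15, 0.343) and Lap3 (0.19, 0.400), the adjusted p-values being from limma. Nrd1 encodes nardilysin, Tpp2 tripeptidyl peptidase 2 and Lap3 leucine aminopeptidase, while Lnpep encodes the endosomal relative of ERAP1 used in cross-presentation. Of 11 genes of glycoprotein folding and the translocon, 0 were called higher (2 at an unadjusted p under 0.05, 0 by edgeR, 1 by DESeq2) and 1 lower. Among all tested genes limma called 3.75% higher and 2.66% lower, and DESeq2 called 6.51% higher. Uggt1, which sends misfolded glycoproteins back to calreticulin and calnexin, averaged 5015 ± 54.5 with taurine and 7538 ± 1356 with R837 (log2 change -0.57, adjusted p = 0.0318, limma), and kept its call only without R837 replicate 3 (0.0834 to 0.122 in the other 5 fits). Sec61b (0.32), a subunit of the translocon, Canx (-0.23), the chaperone calnexin, and Ganab (-0.20), a subunit of glucosidase II, did not pass (adjusted p = 0.0599, 0.105 and 0.111, limma).

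Limma called 3.75% of all tested genes higher and 2.66% lower. Of 12 factors that act on class I promoters, 1 was called higher and 0 lower (0 at an unadjusted p under 0.05, and 0 by edgeR and DESeq2), with a median log2 change of 0.07. This was Irf2, an interferon regulatory factor that binds class I promoters, at 2511, 2549 and 2574 in the taurine libraries against 1848, 1646 and 1854 in the R837 libraries (log2 change 0.52, adjusted p = 0.0140, limma). Its groups did not overlap, and the call was kept without R837 replicate 1 or R837 replicate 3 (adjusted p = 0.0501 to 0.0677 in the other 4 fits, limma). Irf1 (0.28) and Rela (0.08) had adjusted p-values of 0.0746 and 0.539 by limma. The NF-Y subunits, the RFX subunits, Creb1 and Nfkb1 were among the 11 not called.

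**Figure D4:**
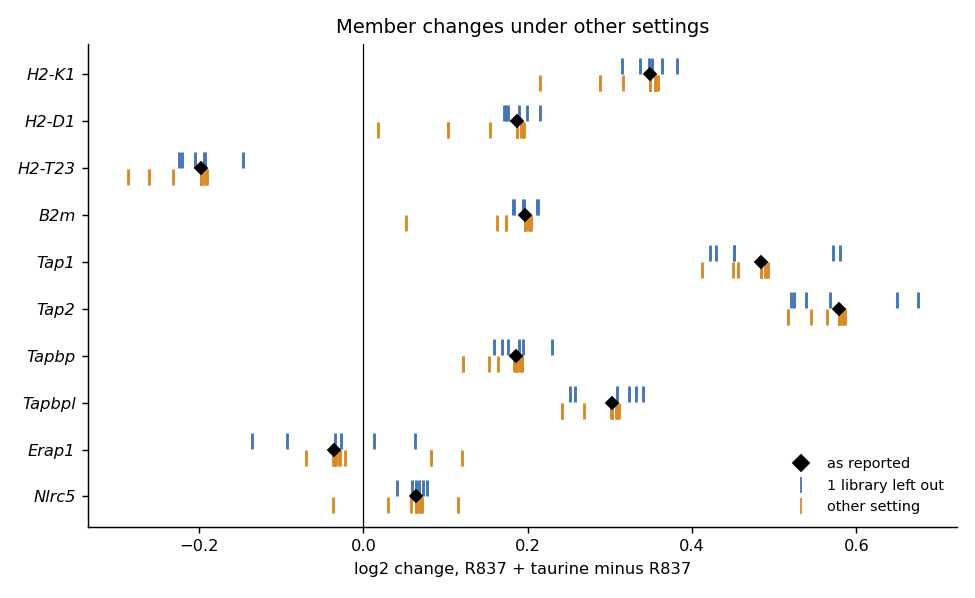
Log2 change of each of the 10 genes (horizontal axis) as reported (diamonds), in the 6 fits with 1 library left out (blue ticks) and in 16 other settings (orange ticks). H2-K1, Tap1 and Tap2 stayed above 0.2 and H2-T23 below -0.14 in all of them, while ticks of Erap1 and Nlrc5 fell on both sides of 0.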

How the data were processed

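The authors deposited 1 signal value per gene and library, which per the file headers is a normalized count. All values were whole multiples of 1 step per library (100% within 0.001 of a whole read), so reads were recovered, and the steps matched the size factors DESeq2 computes. The submitters' processing notes list HISAT2, StringTie, mm8 and mm10 without role or version. No source used here gives the counting tool or its strand setting. Of 52403 gene identifiers shared with GENCODE M21 (mm10), 95.2% had the same coordinates.

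The 15265 genes that reached a normalized count of 10 in 3 or more of the 6 libraries were tested on log2(normalized count + 1) with limma 3.58.1 (R 4.3.3, abundance trend, 1 group term, two-sided, Benjamini-Hochberg over all tested genes, call at 0.05). On the recovered reads edgeR 4.0.16 (quasi-likelihood, TMM) called 571 genes higher and 379 lower, and DESeq2 1.42.0 called 994 and 919. Exon length is the union of GENCODE exons. Per-kilobase ratios, the motif letters and the sum with H2-K2 were chosen after seeing the data.

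The members and lists were chosen with earlier results of these data known. Named genes were the 10 members and up to 4 genes with the smallest p of each other list, of which 1 gene is not reported here. Every pair of libraries of 1 group differed by more than sampling noise (chi-square per gene of 20.3 to 42.4), so none was counted as a repeat. Depth was 33585080 to 38392654 reads on genes per library, and at these levels the spread between libraries, not counting error, limits precision. Alternatives covered pseudocount, filter, scaling, test, replicate block, single libraries, length and GC trends (mgcv 1.9.3) and overlapping genes.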

Additional observations from a re-analysis of the deposited data

How the results depend on the processing

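H2-K1, H2-D1, H2-T23, B2m, Tap1, Tap2, Tapbp and Tapbpl kept their direction in all 22 alternatives. Scaling by DESeq2 size factors repeats the deposited scaling. Adding the reads of overlapping genes leaves H2-K1, H2-D1, H2-T23, B2m and Tapbpl as they were. These alternatives are thus not 22 separate checks. Erap1 was at 0.0818 after removal of length and GC trends, with or without the replicate block, at 0.12 with overlapping genes added, and at 0.0634 and 0.0135 without R837 replicate 2 or taurine replicate 3 (lowest -0.136, without R837 replicate 3). Nlrc5 was at -0.0364 under quantile normalization, and Hfe at 0.20 and 0.0164 without R837 replicate 3 or taurine replicate 1 (lowest -0.277, without R837 replicate 2).

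With 1 library left out, the whole table gave 134 to 1477 calls (101 to 767 higher, 33 to 710 lower). Members called higher were 0 without R837 replicate 2 (134 calls in all) or taurine replicate 2 (250), where 8 of 10 members had an unadjusted p under 0.05, against 17.9% and 20.6% of all tested genes. They were 5 without R837 replicate 3 (1477 calls in all), 2 without R837 replicate 1 (326), 3 without taurine replicate 1 (318) and 1 without taurine replicate 3 (153). Calls ran from 1 to 4 for other heavy chains, 2 to 4 for the immunoproteasome, 0 to 1 for promoter factors (higher), and 0 to 1 each for peptidases and folding genes (lower). The summed heavy chains ran from 0.20 to 0.25, and were at 0.20 for H2-K1, H2-D1 and H2-T23 alone, 0.22 with H2-K2, 0.23 under TMM and 0.19 without the 50 most abundant genes.

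limma without the abundance trend passed 4 genes (1 higher, 3 lower; 3217 at an unadjusted p under 0.05) and 0 genes of the members (5 at an unadjusted p under 0.05), of other heavy chains, of the immunoproteasome, of folding genes and of promoter factors. Without a filter 547 genes passed (333 higher, 214 lower), with 2 members higher and 0 folding genes lower. DESeq2 passed 1913 (994 higher, 919 lower), with 2 peptidases lower, 1 folding gene higher and 2 promoter factors higher. Quantile normalization gave 1 member and 2 folding genes lower, and removal of length and GC trends gave 1 member lower. A pseudocount of 10, the stricter filter and totals without the 50 most abundant genes each gave 1 peptidase lower, and the stricter filter also 1 folding gene higher. The cause of these shifts was not tested.

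Libraries with the same replicate number did not deviate together (Pearson's r across genes of -0.0434 to -0.0026, and 0 of 6 libraries correlated best with their own number), so they share only a number. With the replicate block 615 genes passed (365 higher, 250 lower) and 2 members, H2-K1 and Tap2, with an adjusted p of 0.0782 for Tap1 (limma). With the block and the length and GC correction 602 passed (168 lower), with 2 members higher, 0 folding genes lower and an adjusted p of 0.0829 for Tap1 (limma).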
